A study of Mus musculus with 2 samples.

Results

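Among donor-derived lung macrophages of chimeric mice, 571 of 4570 cells carried transcripts of the secreted metalloproteinases Mmp12 and Mmp13 together with complement C1q, and these cells are described here. A cell was taken as an Mmp12/Mmp13 cell when it held at least 3 unique molecular identifiers (UMIs, each standing for 1 captured transcript) of Mmp12 and Mmp13 together, at least 3 of C1qa, C1qb and C1qc together, at most 3 of Mrc1 and fewer than 5 of Fn1. Of these cells, 302 came from the control pool of 1896 cells and 269 from the Tgfbr2-KO pool of 2674 cells. Control mice had received Tgfbr2 fl/fl bone marrow, and Tgfbr2-KO mice had received LyzM-Cre Tgfbr2 fl/fl bone marrow, in which Cre recombinase is expressed from the lysozyme 2 locus of myeloid cells. All recipients were irradiated IM-DTR mice, whose interstitial macrophages can be depleted with diphtheria toxin, and all were given 50 ng of the toxin 10 days before they were killed. The sort took CD64+ and CD11b+ cells of low side scatter that were CD45.2+ but CD45.1-, Ly6G- and SiglecF-, that is, donor-derived cells without neutrophil and alveolar macrophage surface markers. For each genotype 5 mice were combined into a pool, which was marked with 1 hashtag antibody, B0301 for control and B0303 for Tgfbr2-KO, before both pools were run in 1 droplet-based 3′ RNA library. Mice within a pool cannot be separated, so there was 1 pool per genotype, no test was made, and every difference below describes these 2 pools.

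Interstitial macrophages lie in the lung tissue around airways, vessels and alveoli, and are commonly divided into cells with the mannose receptor CD206 (Mrc1), many of them scavenging cells near vessels, and cells without it that carry much MHC class II. Matrix metalloproteinases are zinc-dependent enzymes that cut extracellular matrix and many secreted proteins. Mmp12, macrophage elastase, degrades elastin, and Mmp13, collagenase 3, opens fibrillar collagen. Transforming growth factor beta (TGF-beta) signals through a complex of Tgfbr1 and Tgfbr2, and the question put by the design is what lung macrophages look like when the marrow they come from lacks the second of these receptors in myeloid cells.

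Mmp13 and Mmp12 are neighbours on mouse chromosome 9. In the RefSeq annotation of GRCm38.p6, Mmp13 spans chr9:7272514-7283333 and Mmp12 spans chr9:7344397-7360461, with 61063 bases between them, in a run of 10 metalloproteinase genes that ends at base 7699585. The other genes of the run were nearly absent from the counts of the Mmp12/Mmp13 cells. Of the other 8, the gene table holds 7, and the largest count in a pool was 2 UMIs, for Mmp1b, against 4262 and 4107 UMIs of Mmp12 in the control and the Tgfbr2-KO cells. The 250 bases before each annotated start are shown because both genes define the cells and only these genes of the cluster were read in them in quantity. Both genes lie on the plus strand, the sequences are from RefSeq on GRCm38.p6, and capitals mark matches to 4 motifs searched on both strands.
Mmp13, chr9:7272264-7272513: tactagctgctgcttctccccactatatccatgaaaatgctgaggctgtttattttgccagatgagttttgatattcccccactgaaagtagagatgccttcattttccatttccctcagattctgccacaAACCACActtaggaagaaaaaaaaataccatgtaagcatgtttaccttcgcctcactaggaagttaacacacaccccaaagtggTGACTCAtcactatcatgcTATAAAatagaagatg
Mmp12, first annotated start, chr9:7344147-7344396: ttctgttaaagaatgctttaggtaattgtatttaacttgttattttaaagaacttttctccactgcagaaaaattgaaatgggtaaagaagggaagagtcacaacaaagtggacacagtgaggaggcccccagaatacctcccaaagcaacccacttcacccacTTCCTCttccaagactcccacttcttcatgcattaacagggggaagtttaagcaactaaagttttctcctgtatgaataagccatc
Mmp12, second annotated start, chr9:7347124-7347373: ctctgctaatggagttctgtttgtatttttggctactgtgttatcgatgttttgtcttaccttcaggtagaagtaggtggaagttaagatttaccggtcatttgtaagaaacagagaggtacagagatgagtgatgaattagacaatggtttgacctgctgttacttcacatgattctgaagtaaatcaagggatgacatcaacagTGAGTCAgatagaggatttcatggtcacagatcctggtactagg
The Mmp13 window held an AP-1 motif (TGANTCA, which reads the same on both strands) 35 bases before the start, a TATA box (TATAAA) at 16 bases and a RUNX motif (AACCACA) at 119 bases. The window of the first Mmp12 start held a PU.1 motif (GAGGAA, here as its reverse complement) at 86 bases, and the window of the second start held an AP-1 motif at 44 bases. Among 32817 windows of this length before annotated starts, 6.75% held the AP-1 motif, 12.37% the TATA box, 4.39% the RUNX motif and 23.25% the PU.1 motif. These matches describe letters only, and 3′ reads do not show which Mmp12 start was used.

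Mmp12 carried most of the metalloproteinase signal, and Mmp13 was limited to a minority of the cells. Levels are UMIs summed over a set of cells per 1000000 gene UMIs of that set (UPM). Mmp12 stood at 1806 UPM in control and 1562 UPM in Tgfbr2-KO cells, and Mmp13 at 161 and 204 UPM. A median Mmp12/Mmp13 cell held 11 UMIs of the 2 genes in either pool, and the highest held 77 in control and 111 in Tgfbr2-KO. In control, 233 cells (77.2%) held Mmp12 alone, 63 (20.9%) held both genes and 6 (1.99%) held Mmp13 alone. In Tgfbr2-KO, 162 cells (60.2%) held Mmp12 alone, 93 (34.6%) held both and 14 (5.20%) held Mmp13 alone. The tenth of cells with the most Mmp13 held 81.0% of its UMIs in control and 62.4% in Tgfbr2-KO. For Mmp12 these shares were 30.5% and 33.5%. The rule was met mostly through Mmp12, and Mmp13 stood much lower, so these shares do not compare the spread of the 2 genes. With every cell thinned to 3000 UMIs, Mmp13 was found in 19.7% of control and 29.0% of Tgfbr2-KO cells, down from 22.9% and 39.8% unthinned.

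**Figure D1:**
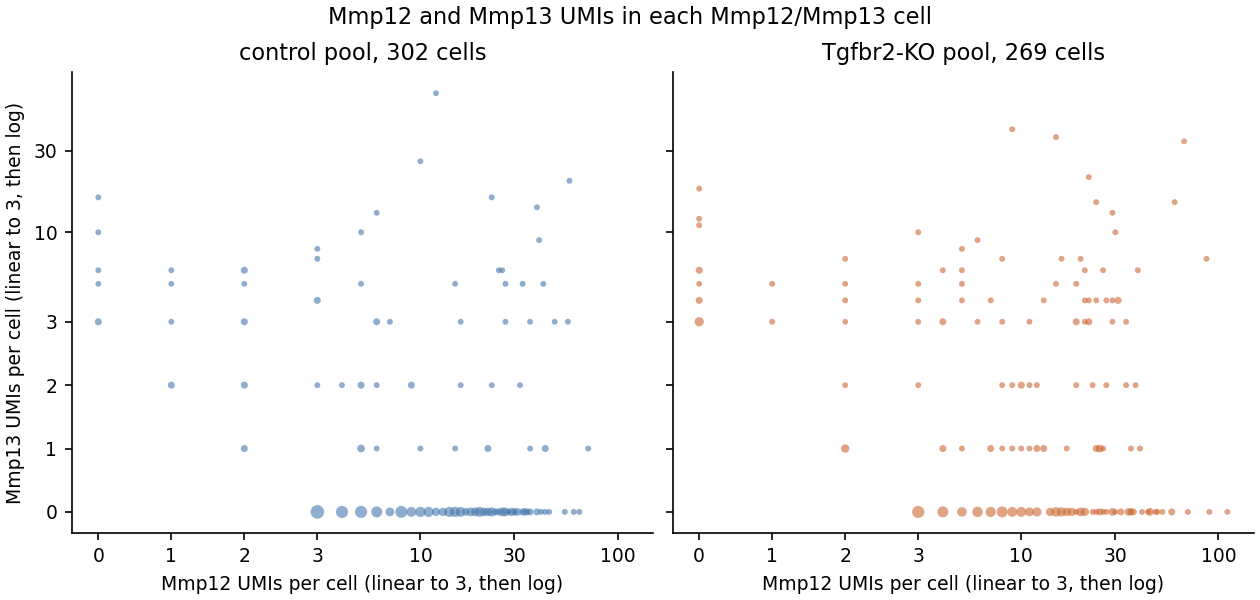
Mmp12 UMIs (x axis) and Mmp13 UMIs (y axis) of each Mmp12/Mmp13 cell, control pool and Tgfbr2-KO pool in separate panels; axes are linear up to 3 and logarithmic above, and the area of a point grows with the number of cells at that position. Most cells lie on the line without Mmp13, 233 of 302 in control and 162 of 269 in Tgfbr2-KO.

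Mmp12 counts from free RNA were looked for in cells that should lack the gene. The rule sets the share of Mmp12/Mmp13 cells with an Mmp12 UMI, so that share is not compared. Among C1q-low cells with at least 5 UMIs of S100a8, S100a9, Ly6c2 and Plac8, monocyte genes, an Mmp12 UMI was found in 2 of 34 control cells (5.88%) and 14 of 253 Tgfbr2-KO cells (5.53%), at median depths of 8999.5 and 11061 UMIs. The Mmp12/Mmp13 cells had median depths of 7463 and 7868 UMIs. An upper bound on free RNA was taken from genes with at least 400 UMIs in the free profile. It was 2.31% in control, set by Ly6i, and 7.29% in Tgfbr2-KO, set by Kazn, and the true shares may be lower. At those shares a median cell would hold 0.0777 and 0.259 UMI of Mmp12 from free RNA. The bound on the rule was not a gap in the data: 34 control and 28 Tgfbr2-KO cells had exactly 3 UMIs of the 2 genes, and 41 and 34 otherwise eligible cells had 2. Cells at 3 UMIs had 25.8 and 33.4 UPM of Nes and cells at 2 UMIs had 41.8 and 90.4 UPM, so this marker did not step up at the limit.

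The cells carried macrophage markers, while Col14a1, 1 of the 4 genes given for them, set them apart in 1 pool at most. C1qa, C1qb and C1qc are required by the rule. The other 6 pan-macrophage markers, among them the growth factor receptor Csf1r, summed to 2123 UPM in control and 1884 UPM in Tgfbr2-KO, against 1399 and 1337 UPM in the C1q-low cells described later. Markers of CD206- interstitial macrophages, which include MHC class II genes, summed to 79928 and 73040 UPM. This sum was also large in other sets. It was 60095 and 62431 UPM in cells that met the same limits except for the metalloproteinases. In the Mrc1-high cells described later it was 55416 and 59128 UPM. Markers of CD206+ cells summed to 199.97 and 149.83 UPM, and to 24.1 and 24.7 UPM without Mrc1, which the rule limits but does not exclude. Nes, which encodes the intermediate filament nestin, was at 82.2 and 70.7 UPM, above all 4 other sets of cells in its pool. Col14a1, which encodes a collagen of the fibril surface, was at 176 UPM in control cells but at 191 UPM in control cells that met the same limits except for the metalloproteinases, so in the control pool it did not mark the Mmp12/Mmp13 cells. In Tgfbr2-KO cells it was at 105 UPM against 55.9 UPM. Once cells holding a UMI of Ly6a, an interferon-inducible gene described later, were left out, its log2 ratio averaged over both pools was negative. Nes lies at chr3:87971093-87980451 and Col14a1 at chr15:55307644-55520803.

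Markers of other lung cell types differed in level. Alveolar macrophage markers summed to 11.4 and 36.1 UPM, with 5 of 9 genes at 0 in control and 3 of 9 in Tgfbr2-KO. Neutrophil markers summed to 20.3 and 31.9 UPM, endothelial or mural markers to 19.1 and 26.6 UPM, and epithelial markers to 20.8 and 33.1 UPM. The fibroblast sum of 219 and 179 UPM was mostly Gsn, an actin-severing protein found in many cells, at 202 and 173 UPM, while Dcn and Lum were at 0 in both pools. Of the T or NK cell markers, Il7r alone was plentiful, at 149.6 and 180.6 UPM, with 5 of 7 markers at 0 in control and 4 of 7 in Tgfbr2-KO. Classical monocyte markers summed to 1093 and 1210 UPM, mostly S100a4 and Ccr2, against 1168 and 1875 UPM in cells that met the same limits but had little Mmp12 and Mmp13, and Vcan was among the markers at 0 in control. Patrolling monocyte markers summed to 469 and 510.3 UPM, mostly Nr4a1, against 391 and 412 UPM. Dendritic cell markers summed to 338 and 351 UPM, against 100.04 and 160.22 UPM, none of the 9 was at 0, and Ccl17, Ccl22 and Cd209a made up most of the sum. Flt3 was at 6.78 and 3.80 UPM, and Zbtb46 at 14.8 and 13.7 UPM. The part of monocytes and dendritic cells in the values below was not tested.

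The Mmp12/Mmp13 cells made up 15.9% of the control pool (302 of 1896, 95% exact interval 14.3 to 17.7%) and 10.1% of the Tgfbr2-KO pool (269 of 2674, 8.95 to 11.3%). All intervals cover counting error only and leave out differences between mice. The nearest cells are those that meet the same limits on C1q, Mrc1 and Fn1 but hold fewer than 3 UMIs of Mmp12 and Mmp13, called Mmp-low cells, of which there were 499 in control and 771 in Tgfbr2-KO. Among both sets together, Mmp12/Mmp13 cells were 37.7% in control (302 of 801, 34.3 to 41.2%) and 25.9% in Tgfbr2-KO (269 of 1040, 23.2 to 28.6%). The pools also differed in Ly6a, which encodes the interferon-inducible surface protein Sca-1. A Ly6a UMI was found in 17 of 499 Mmp-low cells in control (3.41%) and in 421 of 771 in Tgfbr2-KO (54.6%), but in only 8 (2.65%) and 31 (11.5%) of the Mmp12/Mmp13 cells. In cells without a Ly6a UMI the share of Mmp12/Mmp13 cells was 37.9% in control (294 of 776) and 40.5% in Tgfbr2-KO (238 of 588, 36.5 to 44.6%). In cells with one it was 32.0% (8 of 25) and 6.86% (31 of 452). Thinned to 3000 UMIs, a Ly6a UMI remained in 1.33% and 8.27% of the Mmp12/Mmp13 cells and in 1.85% and 45.5% of the Mmp-low cells.

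Outside these sets, Mmp12 was also found in cells that the limits leave out. The other sets are Mrc1-high cells (787 and 1168), Fn1-high cells (176 and 78) and C1q-low cells (132 and 388). Mmp12 stood at 411 and 368 UPM in Mrc1-high, 590 and 814 UPM in Fn1-high and 256 and 185 UPM in C1q-low cells. At least 3 UMIs of Mmp12 and Mmp13 were present in 20.0% and 20.3% of Mrc1-high cells and in 51.7% and 34.6% of Fn1-high cells. Mgl2, the galactose-type lectin CD301b of alternatively activated macrophages and some dendritic cells, was at 814 and 782 UPM in the Mmp12/Mmp13 cells, 506 and 904 UPM in Mrc1-high cells, and 242 and 181 UPM in Mmp-low cells. Its Tgfbr2-KO level was thus higher in Mrc1-high than in Mmp12/Mmp13 cells. H2-M2, a nonclassical MHC class I gene, was at 386 and 391 UPM in the Mmp12/Mmp13 cells and at 113 and 91.8 UPM in Mrc1-high cells.

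**Figure D2:**
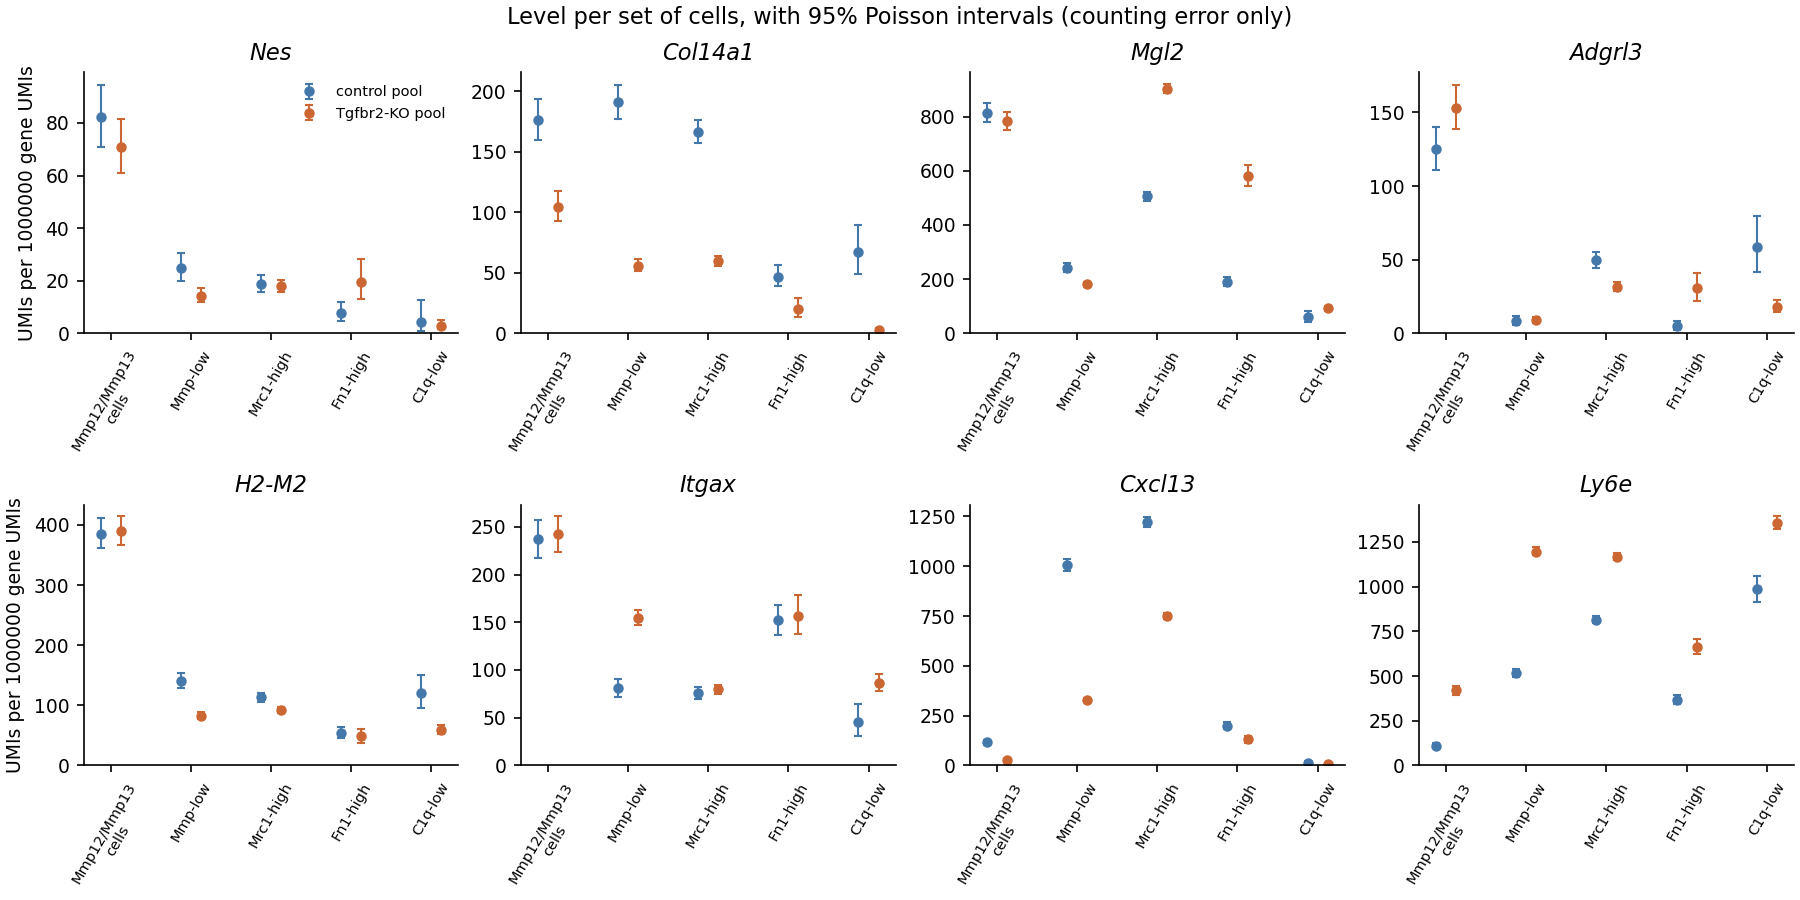
Level of 8 genes (y axis, UMIs per 1000000 gene UMIs) in the 5 sets of cells (x axis), control and Tgfbr2-KO pools side by side, with exact 95% Poisson intervals as error bars. Nes, Adgrl3 and H2-M2 are highest in the Mmp12/Mmp13 cells, and Cxcl13 is far below its level in Mmp-low and Mrc1-high cells.

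The comparison with Mmp-low cells asks what else distinguishes the Mmp12/Mmp13 cells from these nearest cells, not from the other sets. Since the same cells defined the sets, the values are a description. Genes were counted when they had at least 50 UMIs over both sides and 50 UPM on 1 side, and called at 1.5-fold in the same direction in both pools. Of 2638 counted genes, 37 (1.4%) were higher and 34 (1.29%) were lower in the Mmp12/Mmp13 cells. The widest ratio belonged to Adgrl3 (chr5:81019085-81827825), which encodes the adhesion receptor latrophilin 3: 125 and 153 UPM in the Mmp12/Mmp13 cells of control and Tgfbr2-KO against 8.18 and 8.67 UPM. It was 15.3-fold higher in control (95% interval 10.5 to 23.1) and 17.7-fold higher in Tgfbr2-KO (13.8 to 22.8), and its transcripts were found in 88 and 92 cells. Nes was 3.31-fold (2.57 to 4.30) and 4.93-fold (3.92 to 6.22) higher, and Mgl2 3.37-fold (3.11 to 3.65) and 4.32-fold (4.05 to 4.62) higher. These 3 genes are among those ranked for passing 1.5-fold the same way in both pools, so their shared direction follows from that choice.

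The other genes among the 12 highest had varied functions. Dcstamp, needed for fusion of macrophages into multinucleate cells, was at 180 and 221 UPM against 35.4 and 61.3 UPM. Cd207, the endocytic lectin langerin, was at 115 and 55.1 UPM against 61.9 and 15.9 UPM. Il1r2, a decoy receptor for interleukin 1, was at 103 and 167 UPM against 20.4 and 87.8 UPM, and Il7r, the interleukin 7 receptor, was 2.15-fold and 4.44-fold higher. Fgf13 and Xlr completed the ranks with ratios of 1.69 and 5.24 and of 1.98 and 3.21. Ccl17, a chemokine for T cells, and Ear2, a ribonuclease, were 15.5-fold and 8.13-fold and 7.66-fold and 3.26-fold higher. Ccl17 rested on few cells: it was found in 21 control and 19 Tgfbr2-KO cells. Itgax, the integrin CD11c, was at 237 and 242 UPM against 80.7 and 155 UPM.

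The 12 genes with the lowest ratios included 3 chemokines, Cxcl13, Cxcl9 and Ccl8. Cxcl13, a B cell chemokine, was at 116 and 26.2 UPM against 1006 and 329 UPM, and only 11 and 16 of the Mmp12/Mmp13 cells held a UMI of it. Cxcl9, an interferon-induced T cell chemokine, was at 11.9 and 709 UPM against 146.7 and 3235 UPM. Ly6e, which encodes a lipid-anchored surface protein, was at 110 and 420 UPM against 517 and 1196 UPM, or 4.69-fold and 2.85-fold lower. Complement C3 was 5.04-fold and 3.43-fold lower, the adhesion molecule Vcam1 3.58-fold and 2.59-fold lower, and the chemokine Ccl8 2.94-fold and 12.5-fold lower. Thbs1, thrombospondin 1, was 1.95-fold and 3.56-fold lower. The other 5 of the 12 lowest, Nupr1, Ms4a6b, Aoah, Acsl1 and Ms4a6c, ranged from 1.91-fold to 2.79-fold lower. Mmp-low cells had median depths of 6680 and 11217 UMIs, so the Tgfbr2-KO sets differed in depth. Over the alternatives run, the log2 ratio averaged over the pools lay between 3.41 and 4.86 for Adgrl3, 1.40 and 2.11 for Nes, -6.80 and -3.29 for Cxcl13, -6.29 and -2.51 for Ccl8, and -3.57 and -1.97 for C3. Without cells holding a Ly6a UMI, 42 of 2677 counted genes (1.57%) were higher and 53 (1.98%) lower, and all 24 genes ranked highest or lowest were still past 1.5-fold.

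**Figure D3:**
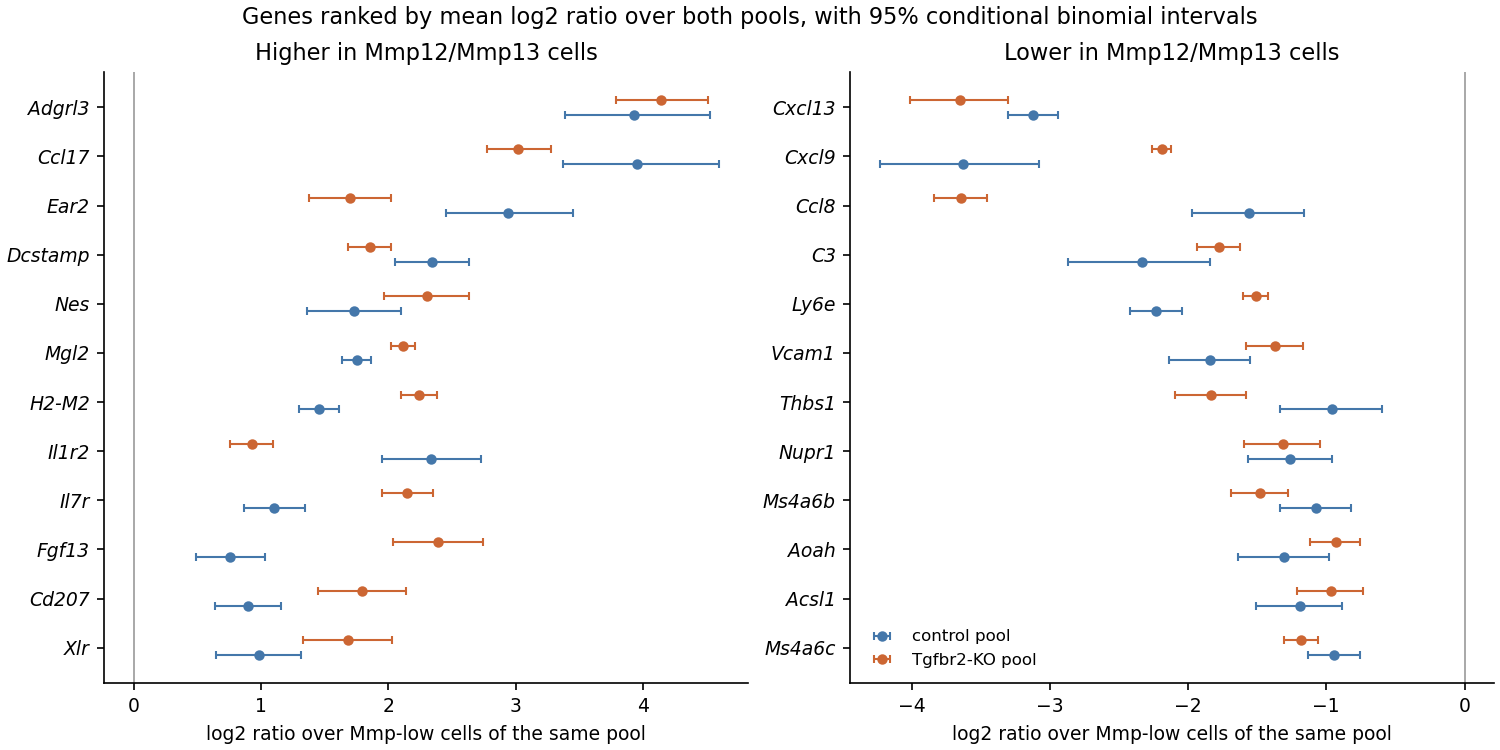
Log2 ratio of Mmp12/Mmp13 over Mmp-low cells (x axis) for the 12 highest and 12 lowest genes (y axis), control and Tgfbr2-KO pools as separate points with 95% counting intervals as bars. The genes were chosen for passing 1.5-fold the same way in both pools, so each lies on the same side of 0.

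The shares over all counted genes, 1.4% higher and 1.29% lower at a median log2 ratio of -0.07, are the background for each list here. Grouped by function, 3 of 5 counted alternative activation genes were higher and none lower, with a median log2 ratio over the pools of 1.59. Their members past the limit were Mgl2, Ccl17 and Ccl22. Retnla, a secreted resistin-like protein, went opposite ways, at 65.2 and 84.0 UPM in the Mmp12/Mmp13 cells of control and Tgfbr2-KO against 83.4 and 7.23 UPM in Mmp-low cells. Of 3 counted plasminogen activation genes, 2 were higher (median 0.87), among them Plau, urokinase, at 76.7 and 73.8 UPM against 43.9 and 30.6 UPM. None of 9 counted lysosomal protease genes passed the limit (median -0.14), and of the 8 counted genes in the list of MHC class II presentation only H2-M2, itself a class I gene, did (median 0.24). Of 6 counted interferon-induced genes 4 were lower and none higher (median -1.08). None of 11 dissociation stress genes passed the limit (median 0.23). Among metalloproteinases, the only other counted gene was Mmp14, a membrane-anchored enzyme, at 52.1 and 81.0 UPM against 69.2 and 131 UPM.

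The levels of several of these genes were also read against the amount of Mmp12 and Mmp13. Cells drawn from those that met the limits on C1q, Mrc1 and Fn1 and held at least 3000 UMIs were binned. The bins are by the UMIs of the 2 genes left after thinning to 3000. They hold fewer cells than met these limits before thinning, with a larger shortfall in Tgfbr2-KO than in control. Cells under 3000 UMIs account for only part of the shortfall, and what removed the rest is not given here. Adgrl3 was at 7.10 and 9.02 UPM in cells with 0 UMIs, 61.9 and 40.4 UPM with 1 to 2, 98.3 and 177 UPM with 3 to 5, 155 and 184 UPM with 6 to 10, and 226 and 452 UPM with over 10. Nes was at 23.2 and 14.3 UPM with 0 UMIs, 42.0 and 56.4 UPM with 1 to 2, 101 and 66.6 UPM with 3 to 5, 89.6 and 100.6 UPM with 6 to 10, and 126 and 135 UPM with over 10. Above the 3-UMI limit its control intervals overlapped, from 78.7 to 128 UPM with 3 to 5 and from 93.1 to 166 UPM with over 10. Mgl2 was at 246 and 174 UPM with 0 UMIs, 867 and 944 UPM with 3 to 5, 873 and 1075 UPM with 6 to 10, and 991 and 1235 UPM with over 10, and its control intervals above the limit overlapped too, while in Tgfbr2-KO that of 3 to 5 (872 to 1021 UPM) lay below that of over 10 (1121 to 1357 UPM). Ly6e went the other way, from 547 and 1199 UPM to 74.5 and 104 UPM. Col14a1 differed between pools. In control it was at 196 UPM with 0 UMIs, 208 UPM with 1 to 2 and 159 UPM with over 10. In Tgfbr2-KO it was at 55.1 UPM with 0 UMIs, 148 UPM with 1 to 2 and 147 UPM with 3 to 5. It was then at 92.2 UPM with 6 to 10 and 124 UPM with over 10. Its Tgfbr2-KO level was thus lowest with 0 UMIs and did not rise further past 1 to 2. The smallest bin held 53 control and 46 Tgfbr2-KO cells.

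**Figure D4:**
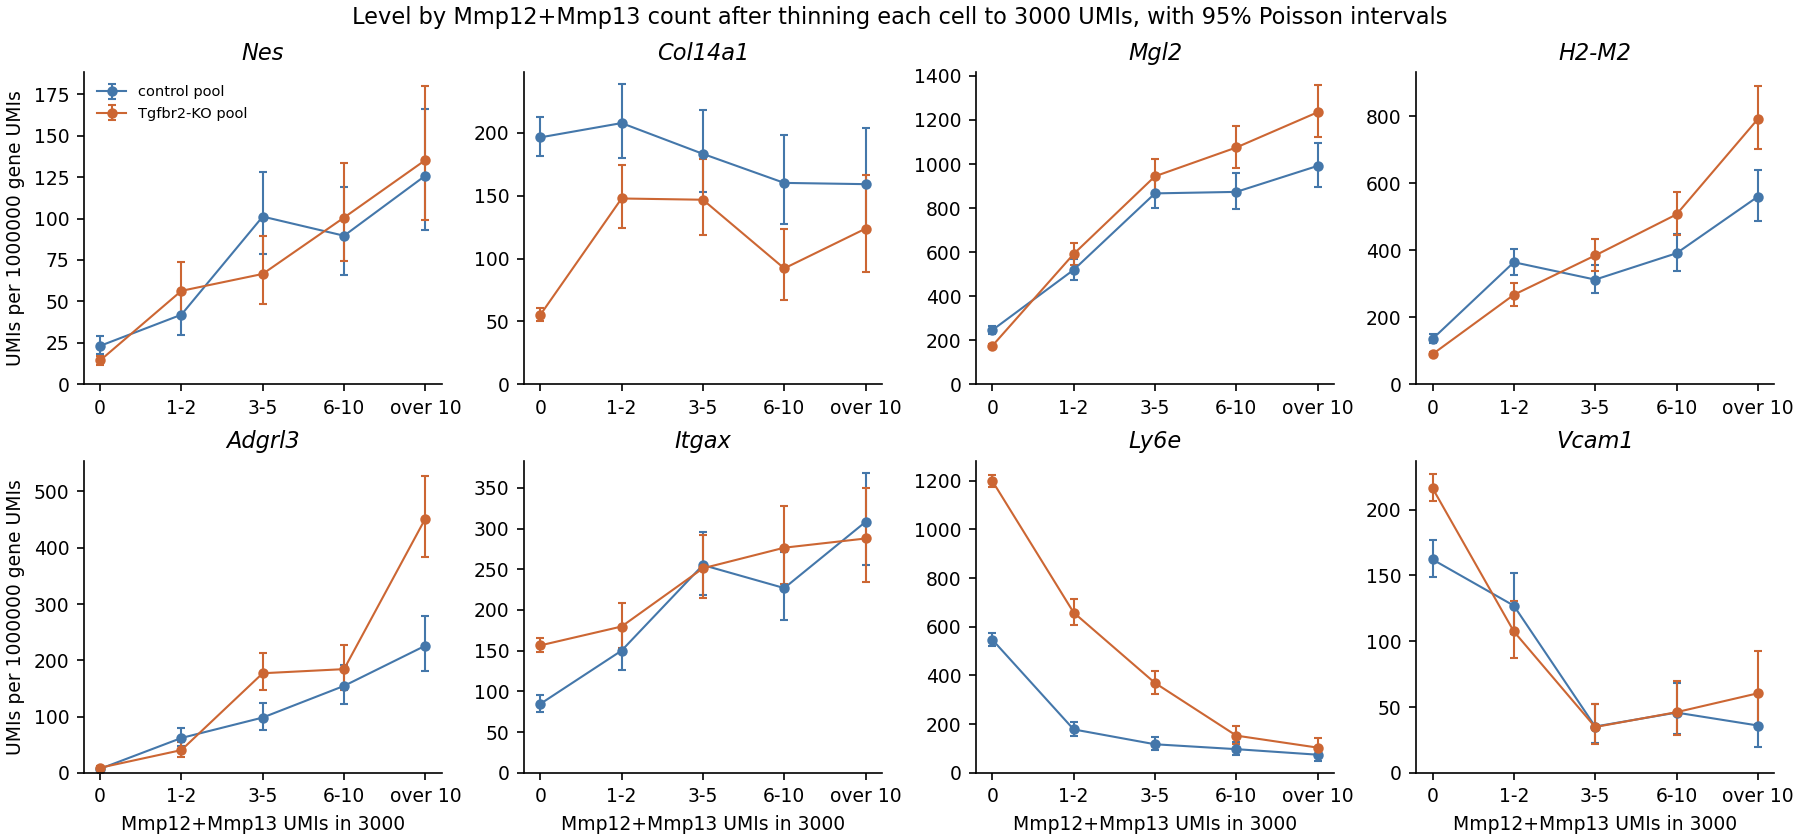
Level of 8 genes (y axis, UMIs per 1000000 gene UMIs) against the UMIs of Mmp12 and Mmp13 in cells thinned to 3000 UMIs (x axis, bins 0, 1 to 2, 3 to 5, 6 to 10 and over 10), control and Tgfbr2-KO pools as separate lines with exact 95% Poisson intervals. Adgrl3, Nes and Mgl2 are highest in the bin over 10, and Ly6e is lowest there.

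Within the Mmp12/Mmp13 cells, those with Mmp13 differed from those without it; this split was chosen after its values were seen. Cells with an Mmp13 UMI numbered 69 in control and 107 in Tgfbr2-KO, at median depths of 6863 and 7415 UMIs, and cells without numbered 233 and 162, at 7547 and 8435 UMIs. In both pools, 23 of 2588 counted genes (0.889%) passed 1.5-fold upward in cells with Mmp13 and 46 (1.78%) downward. Adgrl3 was at 257 and 326 UPM with Mmp13 and 88.6 and 67.2 UPM without. Il10, an anti-inflammatory cytokine, was at 94.1 and 79.0 UPM with and 34.1 and 30.8 UPM without, and H2-M2, at 636 and 567 UPM with, was above the cells without by 1.0 and 0.9 on the log2 scale. Itga9, an integrin that binds tenascin and osteopontin, was at 208 and 254 UPM with and 121 and 117 UPM without. On the other side, Ccl17 was at 5.88 and 4.58 UPM with Mmp13 and 138 and 250 UPM without, and Ear2 at 1.96 and 25.2 UPM with and 111 and 78.0 UPM without. Bhlhe40, a transcription factor, was at 56.9 and 49.2 UPM with and 194 and 189 UPM without. Mgl2 was alike in both kinds of cell, at 757 and 711 UPM with and 830 and 818 UPM without.

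Between the genotypes, Tgfbr2 itself could not serve as a check of the deletion: it was at 165 UPM in control and 192 UPM in Tgfbr2-KO Mmp12/Mmp13 cells, 1.16-fold higher (95% interval 1.02 to 1.33). Reads from the 3′ end of a transcript need not cover the deleted part. Lyz2, the locus that carries Cre, was at 10050 and 4114 UPM, 2.44-fold lower in Tgfbr2-KO (2.39 to 2.50), and 2.30-fold lower in Mmp-low cells. Mmp12 was 0.865-fold its control level and Mmp13 1.27-fold, values that the rule constrains since it selected on both genes. Nes was 0.861-fold its control level, with an interval of 0.700 to 1.06 that includes 1, so no difference in Nes was detectable at this depth. Col14a1 was 1.69-fold lower (1.44 to 1.97), and 3.41-fold lower in Mmp-low cells. Its log2 ratio in the Mmp12/Mmp13 cells was -0.40 after thinning to 3000 UMIs and -0.54 without cells holding a Ly6a UMI, short of 1.5-fold in both. For the thinned ratios here and below, the sets were redrawn from the thinned counts. The rule was then met by 291 control and 278 Tgfbr2-KO cells, so the cells changed as well as the depth.

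In the Tgfbr2-KO Mmp12/Mmp13 cells, 206 of 2838 counted genes (7.26%) stood at least 1.5-fold above control and 61 (2.15%) at least as far below it. In Mmp-low cells, the same comparison called 521 of 3133 genes higher (16.6%) and 370 lower (11.8%). Both comparisons use the same pools, but the cells and depths differ, and whether the effect of genotype differs between the sets was not tested. With TMM scaling in place of total UMIs, the median of all genes in the Mmp12/Mmp13 cells moved by -0.14 on the log2 scale, and the calls became 133 higher and 149 lower. The share of calls that were higher thus went from 77.2% to 47.2%, so the balance of directions depends on the scaling. In cells without a Ly6a UMI, 118 of 2753 genes (4.29%) were higher and 39 (1.42%) lower.

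The genes lower in the Tgfbr2-KO Mmp12/Mmp13 cells include lipid handling, metal binding and lectin genes. Apoe, the lipid carrier apolipoprotein E, was at 5472 UPM in control and 2315 UPM in Tgfbr2-KO, 2.36-fold lower (2.29 to 2.44). Trem2, a lipid-sensing receptor of tissue macrophages and microglia, was at 347 and 165 UPM, 2.10-fold lower (1.87 to 2.36). Mt2, a metallothionein, was at 189 and 57.8 UPM, 3.26-fold lower (2.71 to 3.95). In Mmp-low cells the same 3 genes were 2.98-fold, 3.57-fold and 5.21-fold lower. Cd209a, a lectin of monocyte-derived dendritic cells, was at 109 and 21.7 UPM but came from 28 control and 12 Tgfbr2-KO cells. Cd207 was at 115 and 55.1 UPM, Rcan1, an inhibitor of calcineurin, at 142 and 63.9 UPM, and the peptide transporter Slc15a2 at 58.5 and 28.1 UPM. Asgr2, an asialoglycoprotein receptor subunit, was at 58.0 and 24.0 UPM, and Tmem37 at 65.7 and 32.7 UPM. Cxcl13 was also among the 12 lowest, at 116 and 26.2 UPM, but without the 5 cells with the most of it in each pool its log2 ratio was 0.73, and Asgr2 and Cd207 came to 0.00 and -0.28 when cells were thinned to 3000 UMIs. Apoe and Mt2 came to -0.58 and -0.93 after thinning, down in size from -1.24 and -1.71. The thinned ratios are for sets redrawn from the thinned counts, so the cells differ as well as the depth. All 12 lowest genes stayed past 1.5-fold without cells holding a Ly6a UMI.

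Genes in the TGF-beta target list were lower in part. The list was chosen with earlier results of these data known, and its genes Kazn and Rnf180 had already been named as lowered in Tgfbr2-KO. Its counts and medians are therefore a description only. Of 19 counted targets, 5 were lower and none higher, with a median log2 ratio of -0.42, against 2.15% lower and a median of 0.10 over all counted genes. The Mmp-low cells had 12 of 20 lower and 1 higher (median -0.93), against 11.8% lower over all counted genes. Among the 5 were Pmepa1, a feedback inhibitor of the pathway, at 239.8 and 143 UPM, the integrin subunit Itgb5, at 187 and 111 UPM, Cd33, at 109.7 and 64.3 UPM, and Kazn, at 52.1 and 27.0 UPM. Skil, a repressor that TGF-beta induces, was at 593 and 409 UPM and did not reach 1.5-fold. Of 10 antioxidant and metallothionein genes 3 were lower, Mt1, Mt2 and Srxn1, and none higher (median -0.30). Of 5 microglia-like homeostatic genes 2 were lower, Trem2 and Fcrls (median -0.57). Of 12 inflammatory cytokine genes 3 were lower and 1 higher (median -0.36), and Cxcl2, the most abundant chemokine measured here, was at 12620 and 8360 UPM.

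Of the 12 genes with the highest ratios in Tgfbr2-KO, 4 are in the interferon-induced list (Cxcl9, Ly6a, Rsad2 and Gbp2). That list held 14 of all 2838 counted genes. In control all 12 stood between 1.27 and 11.9 UPM, below the level needed for counting. Each was thus counted through its Tgfbr2-KO level alone, so this ranking is a description. Inhba, the activin A subunit of the TGF-beta family, was at 2.97 UPM in control and 187 UPM in Tgfbr2-KO, a 63.0-fold difference (30.3 to 157), but it was found in 24 Tgfbr2-KO cells and the top 5 held 82.7% of its UMIs. Cxcl9 was at 11.9 and 709 UPM, 59.7-fold higher (41.2 to 90.1), and was found in 10 control and 47 Tgfbr2-KO cells. Gbp2, a guanylate-binding protein, was at 8.47 and 166 UPM, and F10, coagulation factor X, at 2.54 and 71.9 UPM. Ly6a was at 3.81 and 191 UPM, Ly6i at 2.12 and 84.8 UPM, Serpina3g at 1.27 and 52.1 UPM and Acod1, which makes the metabolite itaconate, at 2.54 and 74.5 UPM. Plac8 and Ly6c2, genes of inflammatory monocytes, were at 2.12 and 84.0 UPM and at 3.39 and 74.2 UPM. Ass1, an enzyme of arginine synthesis, was at 4.66 and 104 UPM, and Rsad2, an antiviral enzyme, at 2.97 and 72.3 UPM. The classical monocyte marker sum was 1093 and 1210 UPM in these cells, and 1168 and 1875 UPM in Mmp-low cells.

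Part of this difference lay in the 31 Tgfbr2-KO cells with a Ly6a UMI. Without the cells of both pools that held one, 4 of the 12 highest genes were still counted and past 1.5-fold, namely Inhba, Cxcl9, F10 and Gbp2. Cxcl9 then stood at 12.2 UPM in control and 194 UPM in Tgfbr2-KO, and Gbp2 at 8.71 and 78.8 UPM. Rsad2, Serpina3g, Acod1 and Ass1 kept log2 ratios of 3.92, 3.79, 3.98 and 2.41 but fell below the counting minimum. Plac8 came to 2.31, Ly6i to 0.65, Ly6a, which defines the removal, to 0.17, and Ly6c2 to -1.25. Thinned to 3000 UMIs, with the sets redrawn from the thinned counts, Plac8 and Ly6c2 came to 0.48 and 0.07. The other 10 of the 12 genes had log2 ratios between 0.74 for Ass1 and 4.40 for Cxcl9 after thinning, and Inhba came to 1.80.

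The interferon-induced genes were higher as a list. All 14 counted members were at least 1.5-fold higher in the Tgfbr2-KO Mmp12/Mmp13 cells, with a median log2 ratio of 1.90, against 7.26% and a median of 0.10 over all counted genes. All 21 counted members were higher in the Mmp-low cells, with a median of 3.11, against 16.6%. Without cells holding a Ly6a UMI, 7 of 10 counted members were higher, against 4.29%, and the median was 1.19. Ifitm3, a membrane protein that restricts viral entry, was at 174 and 634 UPM, 3.65-fold higher (3.27 to 4.07). Ly6e was at 110 and 420 UPM. The list held no lower gene in either set. Of its 25 genes 14 were counted, several of them through their Tgfbr2-KO level alone, so the count is a description.

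**Figure D5:**
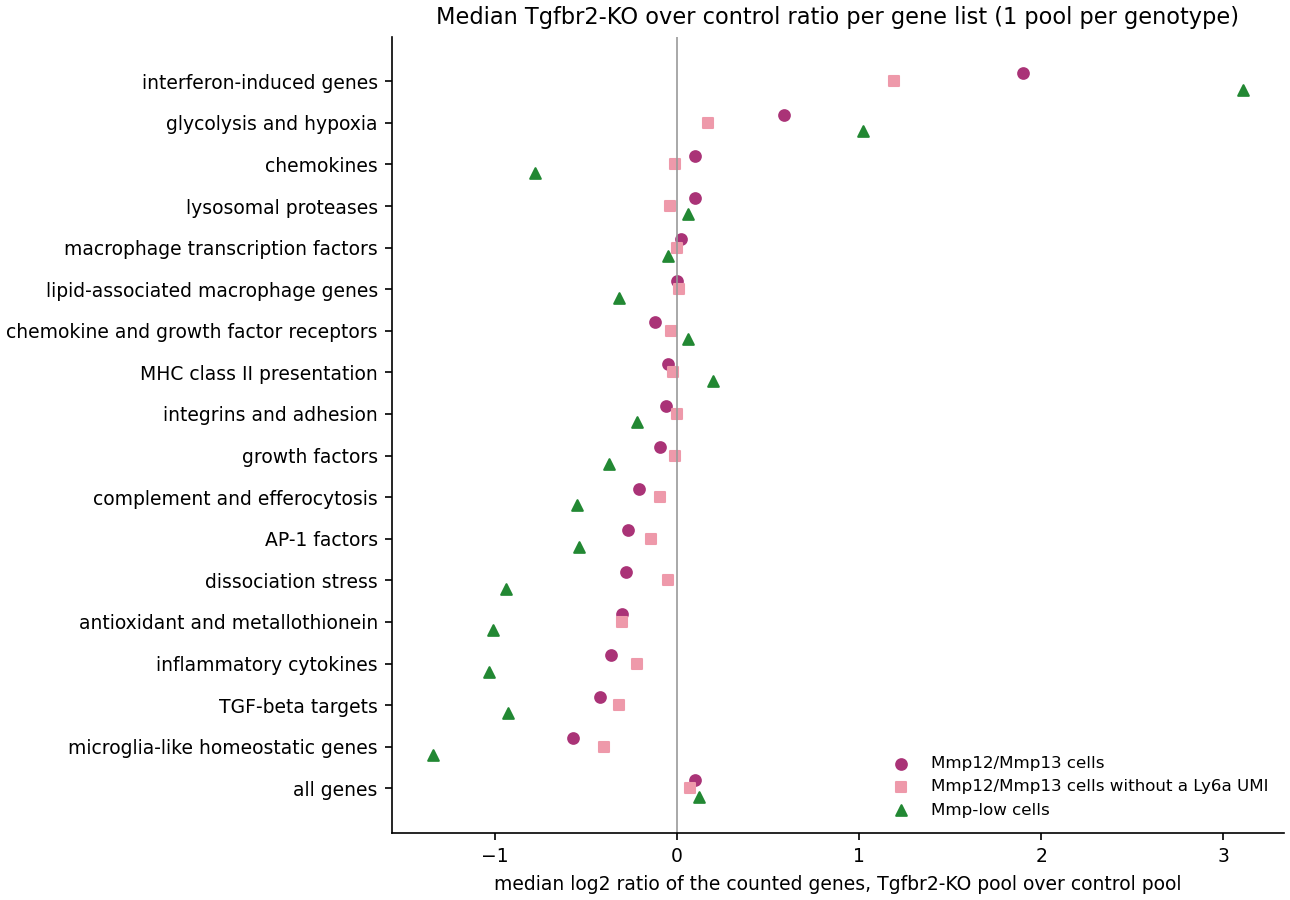
Median log2 ratio of Tgfbr2-KO over control (x axis) for each gene list (y axis) in all Mmp12/Mmp13 cells, in those without a Ly6a UMI and in Mmp-low cells. The interferon-induced list lies highest, at 1.90, 1.19 and 3.11, and the TGF-beta target list lies below 0 in all 3, at -0.42, -0.32 and -0.93.

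Of the lipid genes named here, Lpl and Pparg were higher in the Tgfbr2-KO Mmp12/Mmp13 cells and not in the Tgfbr2-KO Mmp-low cells, while Fabp5 was higher in both; the difference between the sets was not tested. Lpl, lipoprotein lipase, was at 192 and 385 UPM, 1.999-fold higher in Tgfbr2-KO (1.79 to 2.24), and at 191 and 151 UPM in Mmp-low cells. Pparg, a nuclear receptor of lipid metabolism, was at 54.2 and 95.1 UPM, 1.75-fold higher (1.41 to 2.19), and at 48.8 and 37.8 UPM in Mmp-low cells. Fabp5, a fatty acid carrier, was at 55.5 and 337 UPM, and at 121 and 651 UPM in Mmp-low cells. Gpnmb, a lysosomal glycoprotein, was at 11.4 and 154 UPM, from 6 and 9 cells, and at 14.2 and 32.6 UPM in Mmp-low cells, below the counting minimum there. As a list, lipid-associated macrophage genes split evenly, with 3 higher and 3 lower of 13 counted (median 0.00), against 7.26% higher and 2.15% lower over all counted genes.

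Glycolysis and hypoxia genes were higher in 6 of 12 counted members and lower in none (median 0.59), against 7.26% higher and 2.15% lower over all counted genes. Pkm, a pyruvate kinase, was at 165 and 254 UPM, Ldha, lactate dehydrogenase, at 114 and 181 UPM, and Pgk1, phosphoglycerate kinase, at 65.2 and 102 UPM. These 3 genes passed 1.5-fold by little, and TMM scaling moves log2 ratios in these cells by -0.14. Neither this list nor the cell cycle genes below were recounted with that scaling. In cells without a Ly6a UMI no member was higher and 1 was lower (median 0.17). Of 4 counted cell cycle genes 3 were higher, against 7.26% of all counted genes, and 1 of 3, against 4.29%, without cells holding a Ly6a UMI. In Mmp-low cells none of 5 was higher and 1 was lower (median -0.24), against 16.6% higher and 11.8% lower over all genes counted there. The cell cycle marker sum was 540 and 891 UPM in the Mmp12/Mmp13 cells and 1050 and 902 UPM in Mmp-low cells. Top2a, a topoisomerase of dividing cells, was at 8.90 and 55.1 UPM and was found in 7 and 16 cells. It was counted through its Tgfbr2-KO level alone.

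Among proteases and their inhibitors, Mmp14 and Timp2 passed 1.5-fold between the genotypes. Mmp14 was at 52.1 and 81.0 UPM, 1.55-fold higher (1.24 to 1.96), and at 51.4 and 62.6 UPM without cells holding a Ly6a UMI. Timp2, which inhibits metalloproteinases and takes part in activating Mmp2, was at 485 and 315 UPM, 1.54-fold lower (1.41 to 1.69), and 2.09-fold lower in Mmp-low cells. Its log2 ratio was 0.01 in cells thinned to 3000 UMIs, with the sets redrawn from the thinned counts. Mmp19 was at 20.8 and 45.6 UPM, Mmp25 at 5.51 and 19.8 UPM and Mmp9, a gelatinase, at 0.847 and 17.1 UPM, all below the minimum of 50 UPM and so not counted. Timp1 was at 4.24 and 3.04 UPM. None of 9 counted lysosomal protease genes and none of 5 counted ADAM and ADAMTS protease genes passed 1.5-fold, with medians of 0.10 and -0.03. Over all counted genes 7.26% were higher and 2.15% lower, so an absence of calls in lists this short tells little.

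The counts of the other lists stand against the same 7.26% higher and 2.15% lower over all counted genes. Of 18 counted chemokines 7 were higher and 4 lower (median 0.10): Cxcl9, Ccl8, Ccl12, Ccl6, Ccl5, Cxcl10 and Ccl17 were higher, and Cxcl13, Ccl7, Cxcl1 and Cxcl2 lower. Of 13 complement and efferocytosis genes 2 were higher and 2 lower (median -0.21). Of 14 chemokine and growth factor receptors 2 were higher, among them Csf2rb, the shared receptor chain for GM-CSF, at 95.8 and 172 UPM. None of 8 MHC class II presentation genes passed 1.5-fold (median -0.05). None of 11 AP-1 factor genes did (median -0.27). None of 11 dissociation stress genes did in the Mmp12/Mmp13 cells (median -0.28). In the Mmp-low cells 8 of 11 were lower (median -0.94), against 11.8% of all genes counted there.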

How the data were processed

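Single-cell RNA and hashtag libraries were made from donor-derived lung cells of 2 pools, per the labels' protocols. Cell Ranger 8.0, Seurat 5.1.0 and the build GRCm38 appear in the submitters' processing notes; what Seurat was used for and the annotation version are not given in the sources used here. The deposited matrix holds the UMI count of 22597 genes and 3 hashtags for every barcode, cells and empty droplets alike, without normalization. The deposited hashtag table, per its header, gives for 4887 called cells the fraction of posterior probability of each state. Its columns ending in cnts are deposited log10 values of the hashtag count plus 1, tested against the matrix.

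Cells assigned to 1 hashtag (4671) were kept with at least 1000 UMIs, 500 genes and at most 10% mitochondrial UMIs, which left 4570. Hashtag multiplets (96) and blank or unassigned cells were left out; doublets within a hashtag cannot be seen, and no doublet caller was run. The third hashtag in the matrix, B0302, had no UMI in the Mmp12/Mmp13 or Mmp-low cells. Members and lists were chosen with earlier results of these data known. Counts were summed over the cells of a set, 2360348 UMIs in control and 2629601 UMIs in Tgfbr2-KO for the Mmp12/Mmp13 cells. Intervals are exact at 95%: Clopper-Pearson for shares, Poisson for levels and conditional binomial for ratios. PCR and shared cells make UMIs less independent than these assume. Counts under 3 were set to a floor of 3 for log2 ratios, which is 1.27 UPM in control and 1.14 UPM in Tgfbr2-KO. Named genes are those of the rule, the given markers, proteases, the 12 highest and 12 lowest counted genes of each comparison (8 of each for the split by Mmp13) and the extremes of each list; mitochondrial, ribosomal, haemoglobin, unannotated and Y-linked genes, Xist and Tsix were left out of the ranks. The ratio script was tested on simulated data. Python 3.11.15, numpy 2.4.6, scipy 1.17.1 and pandas 2.3.3 were used, and edgeR 4.0.16 for TMM factors. Some genes that the rule for named genes would include are not reported here.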

Additional observations from a re-analysis of the deposited data

Results flagged for a closer look

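Stmn1, which encodes a microtubule regulator of dividing cells, had a log2 ratio of Tgfbr2-KO over control of 0.61 in the Mmp12/Mmp13 cells and of -0.95 in the Mmp-low cells. Vps13d, a lipid transfer protein gene, had 0.68 and -0.6. Both were past 1.5-fold in opposite directions in the 2 sets, and the difference was not tested. With 1 pool per genotype, opposite directions describe these pools only.

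Cells outside the comparisons also met the rule for Mmp12/Mmp13 cells: 8 of 95 hashtag multiplets, 10 of 44 cells without hashtag signal and 9 of 65 unassigned cells that passed the cell filter.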

How the results depend on the processing

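No paired analysis was possible because each genotype is 1 pool without replicate numbers, and for the same reason no replicate could be left out. The shares and counts of genes were recomputed under 14 alternatives, and 57 of 88 values stayed within 1.5 times the count reported or within the 95% interval of the share. The share of Mmp12/Mmp13 cells in control and Tgfbr2-KO became 18.1% and 11.3% with a minimum of 2 UMIs, 13.03% and 8.41% with a minimum of 5, and 29.0% and 19.9% with no limit on Mrc1 or Fn1. Of genes between the genotypes, TMM scaling gave 133 higher and 149 lower, no limit on Mrc1 or Fn1 gave 141 lower, a mean over cells gave 123 higher, and thinning to 3000 UMIs gave 100 lower. In Mmp-low cells thinning gave 310 higher and 202 lower. Under thinning the sets were redrawn from the thinned counts, which raised the Mmp-low cells from 499 and 771 to 936 and 1290. Against Mmp-low cells, thinning gave 73 lower. With a gene minimum of 100 UMIs and 100 UPM, 18 genes were higher and 19 lower against Mmp-low cells, 100 higher and 40 lower by genotype, and 316 and 232 in Mmp-low cells. At 2-fold these counts were 8, 8, 75, 12, 242 and 172. Chosen after seeing the data were the removal of cells with a Ly6a UMI, which gave 53 genes lower against Mmp-low cells, 118 higher and 39 lower by genotype and 178 and 116 in Mmp-low cells, and the removal of the 5 cells richest in a gene.

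Of 38 genes followed between the genotypes, 18 stayed past 1.5-fold in 1 direction under all 13 alternatives run for them, and 6 of 494 values reversed. Cxcl13 reversed to 4.42 and Timp2 to 0.01 after thinning, which also redrew the sets. Cxcl13 also reversed to 0.73 without its 5 richest cells. Fn1 reversed to -2.87 without the Mrc1 and Fn1 limits and to -0.08 with free RNA subtracted. Ly6c2 reversed to -1.25 without cells holding a Ly6a UMI. The cause of these reversals was not tested. All 24 genes named against Mmp-low cells stayed past 1.5-fold under their 10 alternatives. The planned bound on free RNA by markers of other cells took more than several genes allow and was replaced by a bound from genes with at least 400 UMIs in the free profile. Genes near 50 UMIs are limited by depth.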
